A study of Mus musculus with 11 samples.

Results

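The 10 genes Hspa5, Hsp90b1, Xbp1, Dnajb9, Pdia4, Calr, Sdf2l1, Herpud1, Hyou1 and Creld2 encode chaperones of the endoplasmic reticulum (ER) and proteins closely tied to them. They were taken by name from a table of 28222 genes of cultured mouse mesenchymal stem cells (MSCs), and all 10 were present and abundant enough to be tested. The rule for choosing them used names and no threshold on a measured value, although earlier results of these data were known when they were chosen. Polyadenylated RNA was sequenced in 11 libraries, of which 6 came from young mice (3 to 5 months) and 5 from old mice (18 to 22 months). All cells were grown at 2% O2 in αMEM with serum and antibiotics, and neither a genotype nor a treatment was given. The labels assign 4 of the young libraries to batch A and the other 2 to batch B, and 2 of the old libraries to batch B and the other 3 to batch C. Both ages were thus found together in batch B alone. The labels do not state what a batch was, nor whether a library came from 1 mouse or from several, so p-values measure the spread between these libraries, which may be technical. In such bulk samples a smaller share of cells of a type and less RNA per cell cannot be told apart.

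Proteins that enter the secretory pathway fold in the ER with the help of chaperones. When unfolded proteins build up, the sensors IRE1, PERK and ATF6 start the unfolded protein response. IRE1 splices the Xbp1 mRNA, and the resulting transcription factor, together with ATF6, raises transcription of chaperone genes. MSCs and their osteoblast progeny secrete large amounts of collagen, which folds in this compartment. Of the 10 genes, Hspa5 encodes BiP, the ER member of the Hsp70 family, and Hsp90b1 the ER member of the Hsp90 family. Calr encodes calreticulin, a lectin chaperone that also binds calcium, and Pdia4 a protein disulfide isomerase. Dnajb9 and Hyou1 encode partners of BiP, a J-domain co-chaperone and a nucleotide exchange factor. Sdf2l1 and Creld2 encode small ER proteins induced by ER stress. Herpud1 acts in ER-associated degradation and Xbp1 is a transcription factor, so neither is a chaperone in the strict sense. Counts per gene do not separate spliced from unspliced Xbp1 mRNA. The 10 genes are protein-coding and lie on 9 chromosomes of GRCm38 (GENCODE M21), with Calr and Herpud1 both on chromosome 8. Hspa5 spans chr2:34771970-34777547 (plus strand) and Hsp90b1 spans chr10:86690209-86705509 (minus strand).

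Chaperone promoters are known for the ER stress response element (ERSE), a CCAAT sequence, 9 bases and a CCACG sequence, and for the related ERSE-II, which is ATTGG, 1 base and CCACG. Promoter windows of 300 bases (250 before and 50 after the start) from RefSeq on GRCm38.p6 were available for 9 of the 10 genes, all but Hyou1. Both strands were searched. ERSE was found in 4 of the 9 windows (44.4%), whereas 39 of 32851 windows of all genes (0.119%) held it. The element was already known from chaperone promoters, so this contrast is no independent result. Hsp90b1 carried ERSE on both strands. ERSE-II was found in Herpud1 and in 0.0365% of all windows. Pdia4 held the shortened form (CCAAT, 9 bases, CCA), which includes every full ERSE and was present in 6 of the 9 windows and in 1.09% of all. None of the 3 forms was found in the windows of Xbp1, Dnajb9 and Sdf2l1. The sites are shown because they are a sequence feature that some members of the group share. They are written 5′ to 3′ on the strand of the motif, with the fixed bases in capitals.
Hspa5, chr2:34772025-34772043, plus strand: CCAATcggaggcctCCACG
Calr, chr8:84847075-84847093, plus strand: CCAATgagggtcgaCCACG
Creld2, chr15:88819520-88819538, minus strand: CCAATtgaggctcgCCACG
Hsp90b1, chr10:86705638-86705656, minus strand: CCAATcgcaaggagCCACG
Hsp90b1, chr10:86705533-86705551, plus strand: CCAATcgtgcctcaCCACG
Herpud1 (ERSE-II), chr8:94386377-94386387, plus strand: ATTGGgCCACG
The Hspa5 site lay 65 to 47 bases before the RefSeq start and inside the first exon of the GENCODE model, which starts further upstream. The Calr, Creld2 and Hsp90b1 sites lay upstream of both models.

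The sequence upstream of Hsp90b1 is given for its pair of sites and for its difference from the other genes described below, and that of Herpud1 for the element it alone carried among the 9. Each runs 5′ to 3′ on the strand of the gene, with the fixed bases of ERSE or ERSE-II in capitals, and a site on the opposite strand reads as its reverse complement.
Hsp90b1, chr10:86705510-86705694, minus strand: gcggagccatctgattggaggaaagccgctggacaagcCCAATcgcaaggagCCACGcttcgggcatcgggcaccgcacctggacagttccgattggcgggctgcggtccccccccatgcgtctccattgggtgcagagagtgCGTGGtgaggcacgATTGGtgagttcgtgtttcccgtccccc
Herpud1, chr8:94386179-94386428, plus strand: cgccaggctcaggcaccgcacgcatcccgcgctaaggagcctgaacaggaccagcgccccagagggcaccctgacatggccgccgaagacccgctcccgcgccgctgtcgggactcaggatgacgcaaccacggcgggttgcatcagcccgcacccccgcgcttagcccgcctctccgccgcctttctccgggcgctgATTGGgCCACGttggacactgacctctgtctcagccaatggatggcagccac
A sequence match describes these letters and does not show that a factor bound them.

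Libraries held between 11969336 and 20315934 counts, and levels are given as CPM (counts scaled to library size) on totals scaled by TMM. TMM factors were between 0.889 and 0.926 in batch A, between 0.948 and 1.02 in batch B and between 1.15 and 1.16 in batch C. No pair of libraries of the same group agreed within sampling noise. The pair of B young libraries differed most, with a chi-square per gene of 52.3, beside 3.24 to 23.7 for the other pairs. These are the only young libraries of batch B. All 10 MSC marker genes were measured in every group, among them Pdgfra (109 to 289 CPM) and Ly6a (270.3 to 778 CPM). The 10 haematopoietic markers, such as Ptprc, summed to 625 to 1358 CPM in batch A, 354 to 717 CPM in young and 715 to 1034 CPM in old libraries of batch B, and 126 to 146 CPM in batch C. Of 8 B and plasma cell markers, Sdc1 made up nearly the whole sum of 136 to 267 CPM, and Mzb1 was at 0 in all groups but C. Erythroid markers summed to at most 3.84 CPM and endothelial markers to at most 9.77 CPM.

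All 10 genes were well expressed. Per kilobase of the longest transcript, Calr stood first with a mean of 737 CPM per kb over the 11 libraries, followed by Hsp90b1 with 298, Hspa5 with 288 and Pdia4 with 174 CPM per kb. Xbp1 (65.5), Herpud1 (60.4) and Hyou1 (45.0) formed a middle range, and Sdf2l1 (28.1), Creld2 (27.2) and Dnajb9 (25.5 CPM per kb) the lower end. Even Dnajb9 was at the 85.7th percentile of tested genes on this scale, and Calr was at the 99.6th. The first place of Calr and the order from Pdia4 through Xbp1 and Herpud1 to Hyou1 were the same in all 4 groups. Hspa5 and Hsp90b1 exchanged places, with Hspa5 second in both groups of batch B and Hsp90b1 second in batches A and C. The least abundant genes, Sdf2l1, Creld2 and Dnajb9, also changed order between groups.

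Levels were spread over a narrow range. The highest library exceeded the lowest by 1.32-fold for Creld2 and by 2.18-fold for Dnajb9, with a median of 1.61-fold over the 10 genes. The median was 2.20-fold over those of the 16132 genes tested that had counts in every library. That larger set was not matched to the 10 genes for level and included genes of much lower level. Together the 10 genes amounted to 4167 ± 266 CPM in A young (SD, n = 4), 4924 ± 428 in B young (n = 2), 5191 ± 73.6 in B old (n = 2) and 4768 ± 96.9 CPM in C old libraries (n = 3). Every library of batches B and C lay above the highest library of batch A (4528 CPM) in this sum. This also held on totals without TMM factors, on which C old libraries (5417 to 5664 CPM) lay above rather than below B old libraries (5171 to 5348 CPM).

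**Figure D1:**
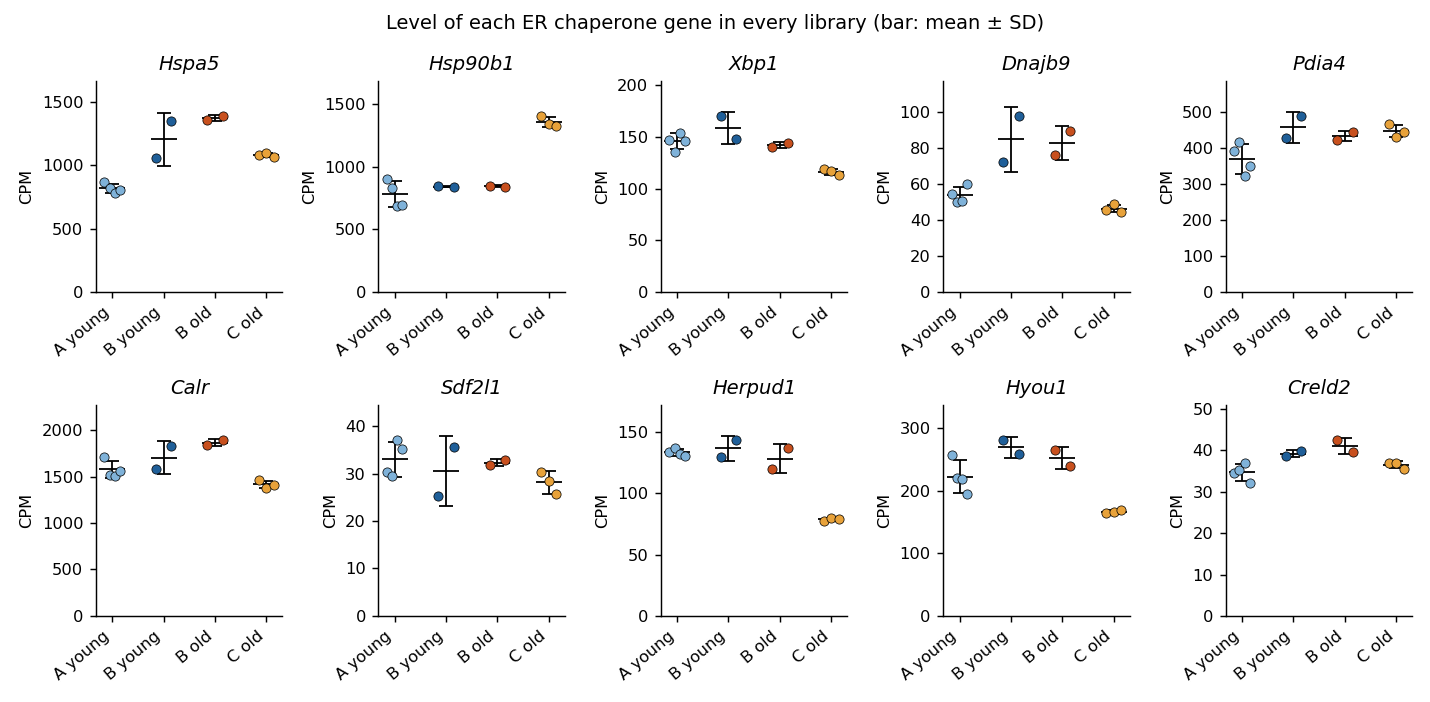
CPM (TMM-scaled) of each of the 10 genes in every library, grouped as A young (n = 4), B young (n = 2), B old (n = 2) and C old (n = 3), with bars for the mean ± SD and axes starting at 0. Hsp90b1 was highest in C old libraries, whereas Herpud1 and Hyou1 were lowest there. Of the 10 genes, 0 were called between young and old libraries with batch adjusted.

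Whether ER chaperone genes changed with age was asked in a fit that included batch. There, the 4 libraries of batch B set the size of the age effect, and the other 7 added to the estimate of the spread. Of the 10 genes, 0 were called at an adjusted p of 0.05, where 2.23% of all genes tested were called (360 of 16132). None passed an unadjusted p of 0.05 either, and DESeq2 and limma-trend also called 0. Log2 fold changes were positive for 5 genes and negative for 5, with a median of -0.01 against 0.00 for all genes. The 95% intervals of the 10 folds lay between 0.765 and 1.37.

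The highest log2 fold change with age was that of Hspa5. It was at 1055 and 1350.1 CPM in the young and at 1356 and 1384 CPM in the old libraries of batch B. Both old libraries lay above both young libraries, although the upper young library was close to the lower old library. The log2 fold change was 0.19 (SE 0.13, 95% interval -0.08 to 0.46, edgeR adjusted p = 0.489). It depended on which B young library was included. Without B young replicate 2, which left a single young library in batch B, the log2 fold change was 0.37. Without B young replicate 1, it was 0.02.

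Calr was at 1580 and 1827 CPM in young and at 1838 and 1895 CPM in old libraries of batch B, a log2 fold change of 0.13 (SE 0.12, adjusted p = 0.630). Xbp1 was at 148 and 170 CPM in young and 140.3 and 144 CPM in old libraries, which gave a log2 fold change of -0.16 (SE 0.11, adjusted p = 0.478). For Hspa5, Calr and Xbp1 the libraries of both ages did not overlap, which was 3 of 10 genes (30.0%) compared with 39.7% of all genes tested. Values of young and old libraries overlapped for the remaining 7 genes. Hsp90b1 was the closest of these, with 839 and 843 CPM in young and 839 and 848 CPM in old libraries (log2 fold change 0.00, SE 0.13). Dnajb9 differed between replicates more than between ages, with 72.2 and 97.6 CPM in young and 76.3 and 89.4 CPM in old libraries.

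Markers of cell identity were also examined in the age comparison. Of the 10 MSC markers, 9 had negative values, with a median of -0.36. By edgeR 2 of the 10 were called, where 2.23% of all genes were. They were Pdgfra (-0.86, adjusted p = 0.00590) and Nt5e (-1.34, adjusted p = 0.00932). The summed level of the 10 MSC markers, mostly Col1a1 and Col1a2, was 44948 to 74746 CPM in young and 39897 to 42179 CPM in old libraries of batch B. The 10 haematopoietic markers all had positive values, with a median of 0.63, and 0 were called by edgeR (5 at an unadjusted p of 0.05), 1 by DESeq2 and 0 by limma-trend. The part of these markers in the age values of the genes described here and below was not tested.

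The outcome was different where batch was left to vary with age. Without the batch term, Hsp90b1 alone was called (log2 fold change 0.54, adjusted p = 0.0449), and 18.0% of all genes were. When A young libraries were compared with C old libraries, 6 of the 10 genes were called, whereas 63.8% of all genes were. Hspa5 (0.46), Hsp90b1 (0.85) and Pdia4 (0.33) were higher and Xbp1 (-0.27), Herpud1 (-0.70) and Hyou1 (-0.36) lower in C old libraries on the log2 scale. In that comparison age and batch cannot be told apart.

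Batches were compared at a fixed age next. Among the young libraries, 2 of the 10 genes were called between batches A and B, both higher in B. Of all genes 18.1% were called in either direction and 9.39% as higher in B. Dnajb9 and Hspa5, the co-chaperone and the Hsp70 that it serves, were the called genes. Hspa5 was at 779, 806, 820.3 and 865 CPM in batch A, below both B young libraries (1055 and 1350.1 CPM), with a log2 fold change of 0.58 (SE 0.14, adjusted p = 0.0144). Dnajb9 was at 50.2, 50.7, 54.4 and 60.0 CPM in batch A and at 72.2 and 97.6 CPM in B young libraries, with a log2 fold change of 0.68 (SE 0.14, adjusted p = 0.00759). The groups did not overlap for either gene. How many of all genes were without overlap between these groups was not counted, here or for the genes that follow.

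Pdia4 (0.33, adjusted p = 0.113) and Hyou1 (0.30, adjusted p = 0.132) had higher values in every B young than in every A young library but did not pass the adjusted threshold. The same held for Creld2 (0.20, adjusted p = 0.255). Hsp90b1 was at 689, 698, 833 and 901 CPM in batch A, a range that included both B young libraries, and its log2 fold change was 0.13 (SE 0.14). Sdf2l1 was the single gene with a negative value (-0.09, SE 0.16).

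Both calls in the young libraries were sensitive to single libraries. Without B young replicate 2, the log2 fold change was 0.39 for Hspa5 (adjusted p = 0.109) and 0.44 for Dnajb9 (adjusted p = 0.0884). With a correction for length and GC content Dnajb9 had 0.38 (adjusted p = 0.0318). Without A young replicate 3, Dnajb9 remained called and Hspa5 did not (0.55, adjusted p = 0.0592). With the replicate number as a block, neither was called (0.53 with adjusted p = 0.318 for Hspa5, 0.71 with adjusted p = 0.0552 for Dnajb9). All 10 haematopoietic markers had negative values between B young and A young libraries, with a median of -1.15. As lower in B, 5 of them were called by edgeR, where 1293 of all 14840 genes tested were. DESeq2 called 2 of these markers and limma-trend 6. The part of these markers in the differences of Hspa5 and Dnajb9 was not tested.

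The most calls were made among the old libraries. Between batches B and C, 7 of the 10 genes were called, 1 higher and 6 lower in C. Of all genes 64.7% were called, 32.1% as higher and 32.6% as lower in C. The count of called genes was thus near that of all genes, and 6 of the 7 were lower. The median log2 fold change of the 10 genes was -0.32, against 0.02 for all genes.

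Hsp90b1 was the gene that was higher. It was at 839 and 848 CPM in B old and at 1322, 1340 and 1401 CPM in C old libraries, a rise of 1.60-fold (log2 fold change 0.68, SE 0.07, adjusted p = 4.32e-06). Its lowest C old library exceeded every library of batches A and B. The annotation places it on chromosome 10, minus strand, where 1810014B01Rik, a pseudogene on the opposite strand, was identical over 273 bases. That gene held 291 counts over all libraries, or 0.183% of those of Hsp90b1.

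BiP and its partners were lower in C. Hspa5 fell from 1356 and 1384 CPM to between 1065 and 1093 CPM (log2 fold change -0.35, SE 0.07, adjusted p = 0.000638). Its co-chaperone Dnajb9 fell from 76.3 and 89.4 CPM to between 44.8 and 48.7 CPM, which was the largest change among the 10 genes (-0.84, SE 0.08, adjusted p = 2.11e-06). The exchange factor Hyou1 fell from 240.4 and 265 CPM to between 164 and 170 CPM (-0.61, SE 0.07, adjusted p = 7.06e-06). For all 3 genes, every C old library lay below both B old libraries. The share of all genes without overlap was not counted in this comparison, in which 64.7% of all genes were called.

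Against batch A, the position of Dnajb9 and Hyou1 depended on the scaling. With TMM factors every C old library lay below every A young library (for Dnajb9 at most 48.7 and at least 50.2 CPM), whereas on totals without them the groups overlapped, with 51.5 to 56.1 CPM in C old and 45.3 to 55.6 CPM in A young libraries for Dnajb9 and 190.5 to 195.5 CPM and 180.0 to 229 CPM for Hyou1. Hspa5 was higher with either scaling. On the TMM scale it was higher in every C old library (at least 1065 CPM) than in every A young library (at most 865 CPM).

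Of the genes with other roles, Herpud1 was at 120 and 137 CPM in B old and at 77.5 to 79.4 CPM in C old libraries (log2 fold change -0.71, SE 0.07, adjusted p = 3.15e-06). In batch A and in B young libraries it was between 129 and 143 CPM, so that batch C stood below all others. Calr fell from 1838 and 1895 CPM to between 1381 and 1460 CPM (-0.40, SE 0.07, adjusted p = 0.000274). Xbp1 fell from 140.3 and 144 CPM to between 113 and 119 CPM (-0.29, SE 0.06, adjusted p = 0.00128).

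Pdia4 was not called (0.04, SE 0.07, adjusted p = 0.585), with 422 and 442 CPM in B old and 430.3 to 465 CPM in C old libraries. Its interval of -0.10 to 0.19 bounded the change. Sdf2l1 (-0.20, adjusted p = 0.0693) and Creld2 (-0.18, adjusted p = 0.0542) were not called either. All C old libraries lay below both B old libraries for each of them with TMM factors but not on totals without them.

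**Figure D2:**
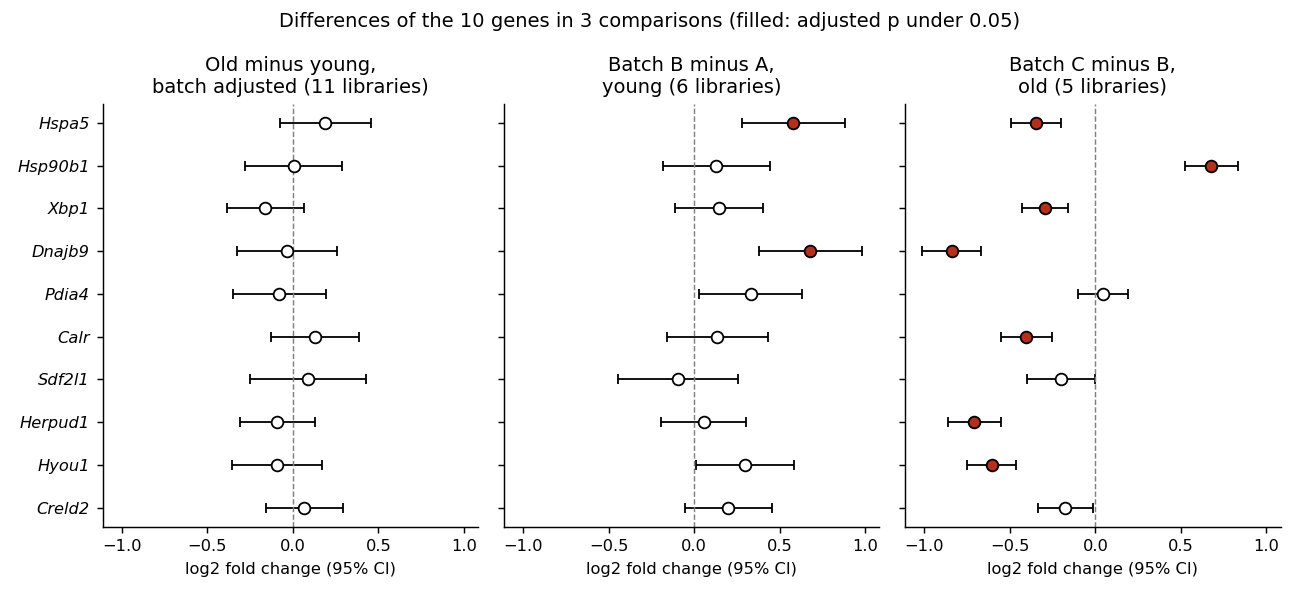
Log2 fold changes of the 10 genes (points) with 95% confidence intervals (bars) for old minus young with batch adjusted, batch B minus A in young libraries, and batch C minus B in old libraries. Filled points passed an adjusted p of 0.05, which were 0, 2 and 7 genes.

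The scale used mattered for these calls. Scaling by total counts in place of TMM moved the median of all genes by 0.19 (log2) in the comparison of C with B. Hspa5 (-0.16, adjusted p = 0.0659) and Xbp1 (-0.10, adjusted p = 0.186) were then not called, while Pdia4 was called as higher (0.24, adjusted p = 0.0112). Calr had -0.21 (adjusted p = 0.0227), Sdf2l1 -0.01 (adjusted p = 0.950) and Creld2 0.02 (adjusted p = 0.847), and the median of the 10 genes was -0.13. Hsp90b1 was called as higher and Dnajb9, Herpud1, Hyou1 and Calr were called as lower with either scaling. Of the haematopoietic markers, 10 of 10 were lower in C old than in B old libraries, with a median log2 fold change of -2.45, and their part in the differences of the chaperone genes was not tested.

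The ratio of Hsp90b1 to Hspa5 does not depend on the scaling. It was chosen after the values were seen and is therefore given without a test. Per kilobase, it was 0.987 to 1.19 in the A young libraries, 0.709 and 0.911 in B young, 0.691 and 0.713 in B old and 1.40 to 1.48 in C old libraries. Batch C lay above, and batch B below, every library of batch A. The ratio of Hsp90b1 to Calr, again per kilobase, was at most 0.371 in all libraries of batches A and B and at least 0.637 in batch C.

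**Figure D3:**
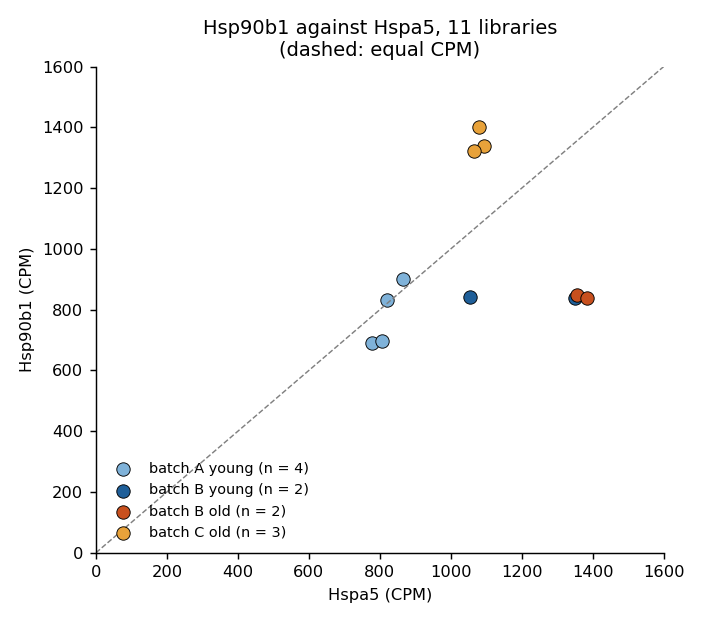
CPM of Hsp90b1 against CPM of Hspa5 in the 11 libraries, coloured by group, with a dashed line at equal CPM. The 3 C old libraries lay above the line, the 4 libraries of batch B below it, and the 4 A young libraries close to it.

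The 10 genes did not move as a unit. Over the 11 libraries, which share batch and age within each group, the median Pearson r of the 45 pairs of genes was 0.33, and 32 pairs were above 0. Herpud1 and Xbp1 had r = 0.87 and Dnajb9 and Calr r = 0.88, whereas Hsp90b1 and Herpud1 had r = -0.93 and Hsp90b1 and Xbp1 r = -0.86. After group means were subtracted, the median was 0.15, with Hspa5 and Calr at 0.86 and Hspa5 and Dnajb9 at 0.76, but Hspa5 and Xbp1 at -0.71. Hsp90b1 was the only member with a negative r with the mean of the standardised levels of all 10 genes over the 11 libraries (-0.40), and Dnajb9 had the highest (0.95). Each gene was itself part of that mean, which raises its r.

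Among other genes, the closest to that mean were Gpr180, Bccip, Adk, Arl1, Riok3, Tsg101, Psmd1 and Gm15500, with r of 0.976 to 0.982 over the 11 libraries. After subtraction of group means these were Rab5a, Faf1, Sf3a3, C330018D20Rik, Dnajc8, Eif2s2, Pdrg1 and Mapk8, with r of 0.948 to 0.962. None of these 16 genes belonged to the lists of ER genes and other chaperones used here. Those lists held 88 of the 16132 genes tested, so this absence says little.

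The rest of the secretory pathway was examined in lists of 88 genes in total, together with cytosolic and mitochondrial chaperones. All of them were tested. Genes named below for a batch difference alone were chosen after their values were seen. With age, 2 of the 88 were called (2.27%, beside 2.23% of all genes), 1 higher and 1 lower. An unadjusted p under 0.05 was found for 14 of the 88, and for 2597 of the 16132 genes tested. Between batches A and B in young libraries 16 were called (18.2%, beside 18.1% of all genes), 14 of them higher in B (15.9%, beside 9.39%). Between batches B and C in old libraries 65 were called (73.9%, beside 64.7% of all genes), of which 55 were lower in C (62.5%, beside 32.6%). These shares of all genes are the background of the counts per list that follow.

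Of 24 further folding factors of the ER, 0 were called with age (1 at an unadjusted p of 0.05, and 0 by DESeq2 and limma-trend). Sil1, an exchange factor of BiP, had the smallest p, with 72.6 and 75.0 CPM in young and 54.8 and 59.6 CPM in old libraries of batch B (log2 fold change -0.37, adjusted p = 0.0947). Erp29 (0.25), Calu (-0.22) and Fkbp10 (-0.22) came next. In young libraries 6 were higher and 1, Creld1, was lower in B. In old libraries 14 were lower and 2, Uggt2 (0.67) and Pdia6 (0.20), were higher in C, with a median of -0.28 beside -0.32 for the 10 genes. With scaling by total counts 11 were lower and 5 higher, and the medians were -0.09 and -0.13.

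In ER-associated degradation, 1 of 15 genes was called with age. Os9, a lectin that hands misfolded glycoproteins to the degradation machinery, was at 220 and 244 CPM in young and at 153 and 171 CPM in old libraries of batch B. This decrease (log2 fold change -0.52, SE 0.11, adjusted p = 0.0227) was not called when libraries were scaled by total counts (adjusted p = 0.0507), with the replicate block (0.0546), in batch B alone (0.234), or without B old replicate 1 (0.284), B old replicate 2 (0.0590), B young replicate 1 (0.0843) or C old replicate 3 (0.0502). Its value was negative in each of these fits. Herpud2 (-0.32), Edem2 (-0.32) and Syvn1 (-0.31) were not called. In young libraries 2 were higher in B, Erlec1 (0.52) and Selenos (0.43). In old libraries 7 of the 15 were lower and 1, Edem3 (0.36), was higher in C, with a median of -0.13 that became 0.06 when libraries were scaled by total counts.

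The sensors of the unfolded protein response and the proteases that activate ATF6 had negative values with age in 6 of 6 genes, of which 0 were called by edgeR (4 at an unadjusted p of 0.05), 1 by DESeq2 and 0 by limma-trend. Their median log2 fold change was -0.32. Mbtps1, which encodes the site-1 protease, was at 221 and 267 CPM in young and at 177 and 194 CPM in old libraries (-0.39, adjusted p = 0.0950). Ern1, which encodes IRE1, had -0.42 (adjusted p = 0.206), Eif2ak3, which encodes PERK, -0.38 (adjusted p = 0.266) and Atf6b -0.27 (adjusted p = 0.260). Between batches C and B in old libraries Eif2ak3 was higher (0.28) and Mbtps2 lower (-0.28), and Mbtps2 was the gene called as higher in B young than in A young libraries (0.37). The direction for this list depended on the processing there, since 4 were higher when scaled by total counts and 4 were lower with a correction for length and GC content.

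The transcripts downstream of PERK and ATF4 were not called with age in 8 of 8 genes (0 at an unadjusted p of 0.05 and 0 by DESeq2 and limma-trend). Chac1 (-0.20), Atf3 (0.42), Sesn2 (-0.21) and Asns (-0.12) had the smallest p-values. In old libraries 5 were lower in C, among them Trib3 (-1.94, adjusted p = 1.89e-09), Asns (-1.38, adjusted p = 1.60e-08) and Chac1 (-1.09, adjusted p = 9.18e-07). Atf3 (0.82, adjusted p = 0.00883) and Ppp1r15a were higher. Ppp1r15a, which encodes a phosphatase subunit that reverses the action of PERK, was at 32.2 and 35.8 CPM in B old and at 124 to 150.1 CPM in C old libraries (2.00, adjusted p = 8.69e-09).

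Genes of the translocon, through which nascent proteins enter the ER, of glycosylation and of the signal peptidase formed the list with the most uniform difference. Of 19 genes, 18 were lower in C than in B old libraries and 0 were higher, with a median of -0.82. Sec61g (-2.39), Ostc (-1.78) and Sec61b (-1.65) had larger decreases than any of the 10 chaperone genes, and Rpn2 fell by 0.23. With a correction for length and GC content 18 were lower as well, and with scaling by total counts 16 were. In young libraries 5 were higher in B, Spcs3 (0.68), Ostc (0.56), Ssr3 (0.47), Sec62 (0.42) and Ssr1 (0.39), and with age 0 were called (1 at an unadjusted p of 0.05 and 0 by DESeq2 and limma-trend).

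Outside the ER, 1 of 10 cytosolic heat shock genes was called with age. Hspa1b, an inducible Hsp70, was at 16.7 and 18.3 CPM in young and at 29.6 and 30.6 CPM in old libraries of batch B (log2 fold change 0.78, SE 0.14, adjusted p = 0.00718). It was not called in batch B alone (adjusted p = 0.0700) and was called in all other alternatives, with log2 fold changes of at least 0.70. In C old libraries it was at 45.7 to 48.2 CPM. Hspa1a, its near-identical neighbour, with which reads can be shared, had 0.69 (adjusted p = 0.118). Hsp90ab1 had 0.23 and Bag3 -0.20. In young libraries Hspb1 was lower in B (-0.66). Between batches C and B in old libraries 5 of the list were lower and 4 higher, against 64.7% of all genes called. Higher were Hspa1a (1.23), Hspa1b (0.64), Dnajb1 (0.62) and Hspb1 (0.59), and lower were Hspa8 (-1.01), Hsph1 (-0.61), Hsp90ab1 (-0.56), Bag3 (-0.33) and Hsp90aa1 (-0.24). With scaling by total counts 3 were lower and 4 higher. Of 6 mitochondrial chaperones and proteases, 0 were called with age (2 at an unadjusted p of 0.05, 0 by DESeq2 and limma-trend), with Hspe1 (0.37), Lonp1 (-0.25), Clpp (0.25) and Hspa9 (-0.15) foremost. Between batches C and B in old libraries 5 of the 6 were lower and 0 higher in C, where 32.6% of all genes were lower, and with scaling by total counts 4 were lower and 1 higher.

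**Figure D4:**
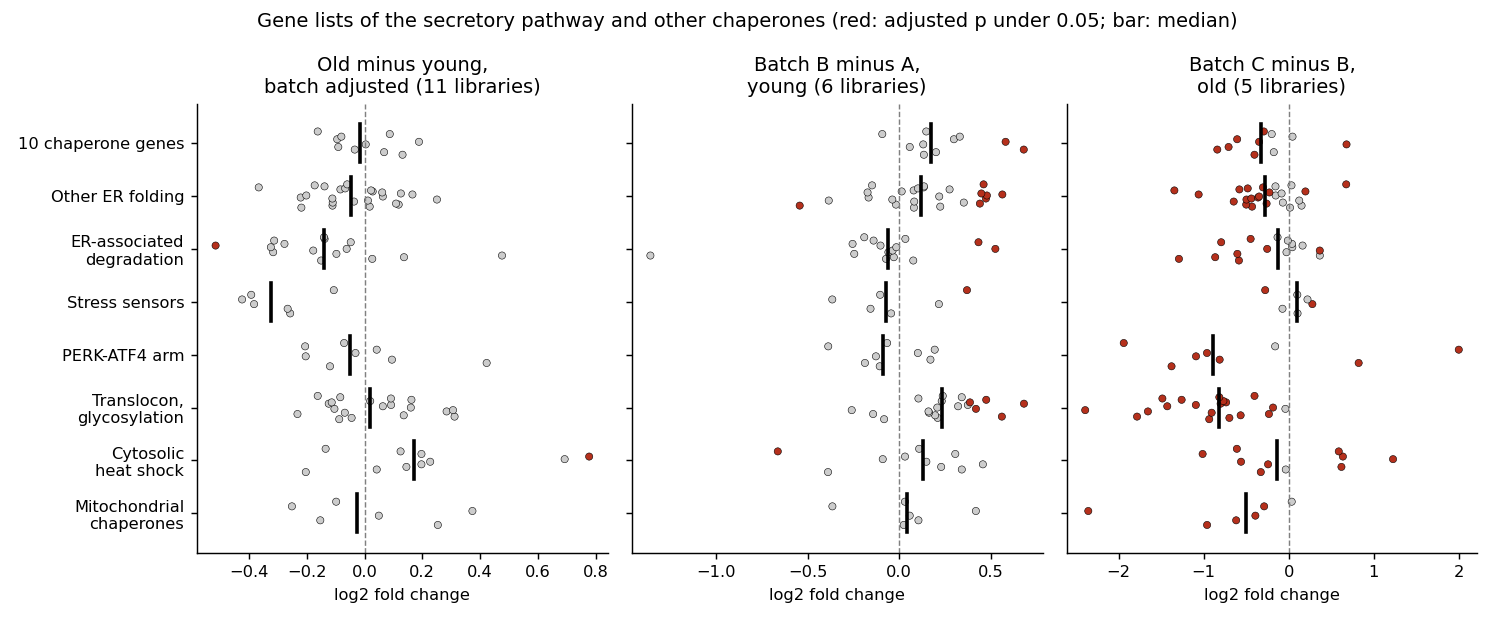
Log2 fold changes of the 10 chaperone genes and 7 further lists in the 3 comparisons, with 1 point per gene, red where the adjusted p was under 0.05, and a bar at the median of each list. The horizontal scale differs between panels. In the right panel (C minus B, old) the medians of the PERK-ATF4 arm (-0.89) and of the translocon and glycosylation genes (-0.82) lie furthest to the left, and Hsp90b1 is the red point to the right of 0 in the top row.

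Genes that shared the promoter element did not share a direction between batches C and B. Hspa5, Calr and Hsp90b1 carry ERSE and had -0.35, -0.40 and 0.68 between batches C and B. Creld2, which also carries it, had -0.18 and was not called. With scaling by total counts Hspa5 (-0.16) was not called either, while Calr (-0.21) remained lower and Hsp90b1 higher. Dnajb9, without any of the 3 forms in its window, had the largest decrease, and Herpud1, with ERSE-II, had -0.71. Of the other ER genes listed, 5 of 66 windows (7.58%) held ERSE, those of Canx, Derl3, Dnajc3, Pdia6 and Syvn1. Canx was lower (-0.43) and Pdia6 higher (0.20) in C, while Derl3, Dnajc3 and Syvn1 were not called. Over all genes with an ERSE in the window, 19 of 37 were tested between batches C and B and 11 (57.9%) were called, 7 higher and 4 lower, where 64.7% of all genes were called. With age 1 of 19 was called (5.26%, beside 2.23% of all genes), the predicted gene Gm6566 (-5.66). This gene had 7.59 between batches C and B and was not tested in young libraries. Hspa5, Calr, Hsp90b1 and Creld2 had positive values with age (0.19, 0.13, 0.00 and 0.07). Between batches B and A in young libraries they also had positive values (0.58, 0.13, 0.13 and 0.20). Of these values only that of Hspa5 in young libraries was called. Over all tested genes with ERSE the medians were -0.03 with age and 0.13 in young libraries.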

How the data were processed

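Polyadenylated RNA of MSCs was measured in 11 libraries, grouped by the age and batch in their labels. The authors deposited a table of raw read counts per Ensembl gene. The builds mm10 and GRCm38 are named in the submitters' processing notes, and the aligner, counter and use of strand are not given in the sources used here. Identifiers were matched to GENCODE M21 (28179 of 28222 genes). After filterByExpr (minimum count 5) and TMM scaling, edgeR 4.0.16 (R 4.3.3) was used for quasi-likelihood tests on the counts. Tests were two-sided, and p-values were adjusted by Benjamini-Hochberg over all genes tested, with a threshold of 0.05. Age was tested in all 11 libraries with batch as a covariate, batch B against A in 6 young libraries, and batch C against B in 5 old libraries. CPM were computed on totals multiplied by TMM factors, with a prior count of 2 on the log2 scale. The range of total counts is 11969336 to 20315934, at which 3 counts equal 0.156 to 0.253 CPM. The fits were tested on simulated data.

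Near-identical transcripts were searched with blastn 2.17.0 (at least 95% identity over 100 bases). Alternatives were DESeq2 1.42.0, limma-trend (limma 3.58.1), RLE factors, scaling by totals, no filter or a minimum count of 10, thinning to the smallest total, a replicate block, a length and GC correction, other sets of libraries, and leaving out each library. The 10 genes, the lists and the tests were chosen with earlier results of these data known. Named besides the 10 genes were up to 4 genes per list with the smallest p of the age comparison, every gene called there, and the 8 genes most alike in each of the 2 ways. Genes named for their promoters were those holding the motif, and further genes of the lists were named for a batch difference after their values were seen.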

Additional observations from a re-analysis of the deposited data

How the results depend on the processing

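Of the 10 genes, 0 were called with age in all alternatives but 3. These were the fit with no batch term (1 called), A young against C old libraries (6 called), and the fit without B young replicate 2. Leaving out each library in turn gave 0 to 1 called genes with age, 0 to 2 between batches B and A in young libraries and 7 to 8 between batches C and B in old libraries. The gene called with age without B young replicate 2, which left a single young library in batch B, was Hspa5 (0.37). The value of Hspa5 ranged from 0.02 to 0.37 over the libraries left out. In young libraries 0 were called without B young replicate 2 and 1 (Dnajb9) without A young replicate 3. The log2 fold change of Pdia4 was -0.08 with age and 0.33 for A young against C old libraries, where age and batch cannot be told apart. Values that were not called changed sign in 14 cases for age, 5 in young and 3 in old libraries. With the replicate number as a block, 0 genes were called with age, 0 in young and 7 in old libraries. Same-numbered libraries had correlations of deviations between -0.111 and 0.037, so the numbers were not taken to pair them. Over all genes the block gave 729 calls in young libraries in place of 2686. With age, calls over all genes numbered 360, but 640 with DESeq2, 1094 without a filter, 123 in batch B alone and 2007 without B young replicate 2. In young libraries a single fit of all 4 groups gave 4171. With scaling by total counts, calls in old libraries were 6472 higher and 3825 lower, compared with 5029 and 5104, and in young libraries 2004 and 1016, compared with 1393 and 1293. With age, these were 150 and 185, compared with 112 and 248. With the length and GC correction Hyou1 was also called in young libraries (0.52, adjusted p = 0.0152). The cause of these changes was not tested. With 2 libraries per age in batch B, the age effect of each gene is bounded only by its interval.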
